A study of Mus musculus with 11 samples.

Results

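Promoter chromatin was described in the endocrine cells of Control mice at postnatal day 9 (P9), where the histone mark of active genes, H3K27ac, and the mark of repressed genes, H3K27me3, had each been profiled in 2 libraries. These 4 libraries are part of a series of 11. The Control animals were Isl1loxP/+;Neurod1-cre, so they had 1 floxed Isl1 allele and were heterozygous for Isl1 in the cells where Cre had acted. Neurod1-cre acts in Neurod1-expressing cells, and it also switched on the Ai14 tdTomato reporter by which the cells were sorted. All lines were kept on C57BL/6, and littermates of both sexes were used. Each library came from about 20000 tdTomato+ cells pooled from 3 to 4 pancreases. Pancreatic endocrine cells include alpha, beta and delta cells, so a pool can mix these types as well as several animals. The other libraries used below were from Isl1CKO mice (Isl1loxP/loxP;Neurod1-cre) with the same reporter and age, 2 for each mark, and 1 library of the transcription factor ISL1 in Control cells at P9.

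For each gene, the promoter region with the highest mean level of a mark was taken, where a promoter region is one that the deposited annotation places within 3 kb of a gene start. Levels are in CPM, the count of a region per 1000000 counts of its library in all listed regions of the mark. A gene was said to carry a mark when its chosen region reached 5 CPM in both Control libraries. This placed all 21560 genes named in either table in 1 of 4 classes: H3K27ac only, H3K27me3 only, both marks, or neither. The 5 CPM threshold was set for this description and is not the authors'. The count thus concerns genes, each with at most 1 region per mark.

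The same lysine, residue 27 of histone H3, can be acetylated or methylated, but a single histone tail cannot hold both marks at that lysine. Acetylation is placed by the acetyltransferases p300 and CBP at promoters and enhancers in use. Trimethylation is placed by Polycomb repressive complex 2, through its catalytic subunit EZH2 or EZH1, often over whole domains around developmental genes rich in CpG dinucleotides. In a mixed cell pool, both marks at a gene can come from different cells, from different alleles or from neighbouring nucleosomes, and these cannot be told apart here.

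The following sequences show promoters of 6 genes, with each class represented. They are the 250 bases before the RefSeq start of the gene, on the coding strand, from 5′ to 3′, in assembly GRCm38.p6. Each CG dinucleotide, which reads the same on both strands, is in capitals. Dis3l, an exosome ribonuclease gene, had the highest H3K27ac per kb of its class, and the long noncoding gene Gm4675 had the highest H3K27me3 per kb of its class, under the limits on width and replicates given below. The islet genes Pdx1 and Neurog3 carried both marks, Sst carried H3K27me3 alone, and Iapp carried neither.
Dis3l: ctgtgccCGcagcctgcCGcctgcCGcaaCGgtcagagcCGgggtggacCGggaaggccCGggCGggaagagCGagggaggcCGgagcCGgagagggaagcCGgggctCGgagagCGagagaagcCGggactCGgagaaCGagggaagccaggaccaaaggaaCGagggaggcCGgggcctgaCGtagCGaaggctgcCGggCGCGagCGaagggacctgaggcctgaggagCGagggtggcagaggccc
Gm4675: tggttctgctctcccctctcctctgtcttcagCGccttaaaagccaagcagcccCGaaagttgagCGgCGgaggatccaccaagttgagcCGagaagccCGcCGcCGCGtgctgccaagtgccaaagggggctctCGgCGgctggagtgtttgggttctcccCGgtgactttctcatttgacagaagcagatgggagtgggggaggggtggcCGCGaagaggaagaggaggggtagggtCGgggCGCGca
Pdx1: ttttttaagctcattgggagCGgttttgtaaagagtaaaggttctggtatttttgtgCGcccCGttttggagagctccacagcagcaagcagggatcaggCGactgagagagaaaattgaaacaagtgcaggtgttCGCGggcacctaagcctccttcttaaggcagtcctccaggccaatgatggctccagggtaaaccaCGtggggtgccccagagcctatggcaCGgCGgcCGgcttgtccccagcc
Neurog3: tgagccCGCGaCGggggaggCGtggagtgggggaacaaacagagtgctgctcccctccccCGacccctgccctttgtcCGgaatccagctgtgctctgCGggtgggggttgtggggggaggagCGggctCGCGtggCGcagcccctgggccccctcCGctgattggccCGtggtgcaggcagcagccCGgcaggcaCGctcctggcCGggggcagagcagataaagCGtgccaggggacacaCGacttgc
Sst: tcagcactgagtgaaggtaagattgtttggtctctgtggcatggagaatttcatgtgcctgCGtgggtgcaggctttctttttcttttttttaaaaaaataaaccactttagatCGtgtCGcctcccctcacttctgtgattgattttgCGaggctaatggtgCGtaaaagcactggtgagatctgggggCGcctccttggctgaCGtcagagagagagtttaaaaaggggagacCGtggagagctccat
Iapp: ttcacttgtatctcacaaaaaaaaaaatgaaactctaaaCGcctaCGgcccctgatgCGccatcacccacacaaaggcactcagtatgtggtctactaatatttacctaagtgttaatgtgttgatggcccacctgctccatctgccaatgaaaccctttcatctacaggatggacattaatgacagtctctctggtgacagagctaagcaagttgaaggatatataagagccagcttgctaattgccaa
The count of CG was 26 for Dis3l, 17 for Gm4675, 10 for Pdx1, 18 for Neurog3, 8 for Sst and 3 for Iapp. Over the 27025 promoters of the RefSeq table the median was 6 in the same 250 bases, and 91.7% of promoters had at least 1. These counts describe the 6 windows only. A comparison of CpG content between the classes was void, because under 80% of the protein-coding genes in 3 of the 4 classes had a promoter in the table.

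H3K27ac alone was the most frequent state, at 10585 genes (49.1 percent of the 21560). H3K27me3 alone was found at 3141 genes (14.6 percent), both marks at 1034 genes (4.8 percent) and neither at 6800 genes (31.5 percent). In all, 53.9 percent of genes carried H3K27ac and 19.4 percent carried H3K27me3. Of the 4175 genes with H3K27me3, 24.8% also carried H3K27ac. A gene is counted only where a region of either mark is named for it, so the share among genes without H3K27me3 is not set beside this one. The 12493 genes that the reference table lists as protein-coding divided into 7882 with H3K27ac alone (63.1%), 1873 with H3K27me3 alone (15.0%), 844 with both (6.76%) and 1894 with neither (15.2%). The counts of the gene lists below are to be read beside these shares and those of all genes. Of the 2392 lncRNA genes, 1024 had neither mark, 875 had H3K27ac alone, 421 had H3K27me3 alone and 72 had both.

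**Figure D1:**
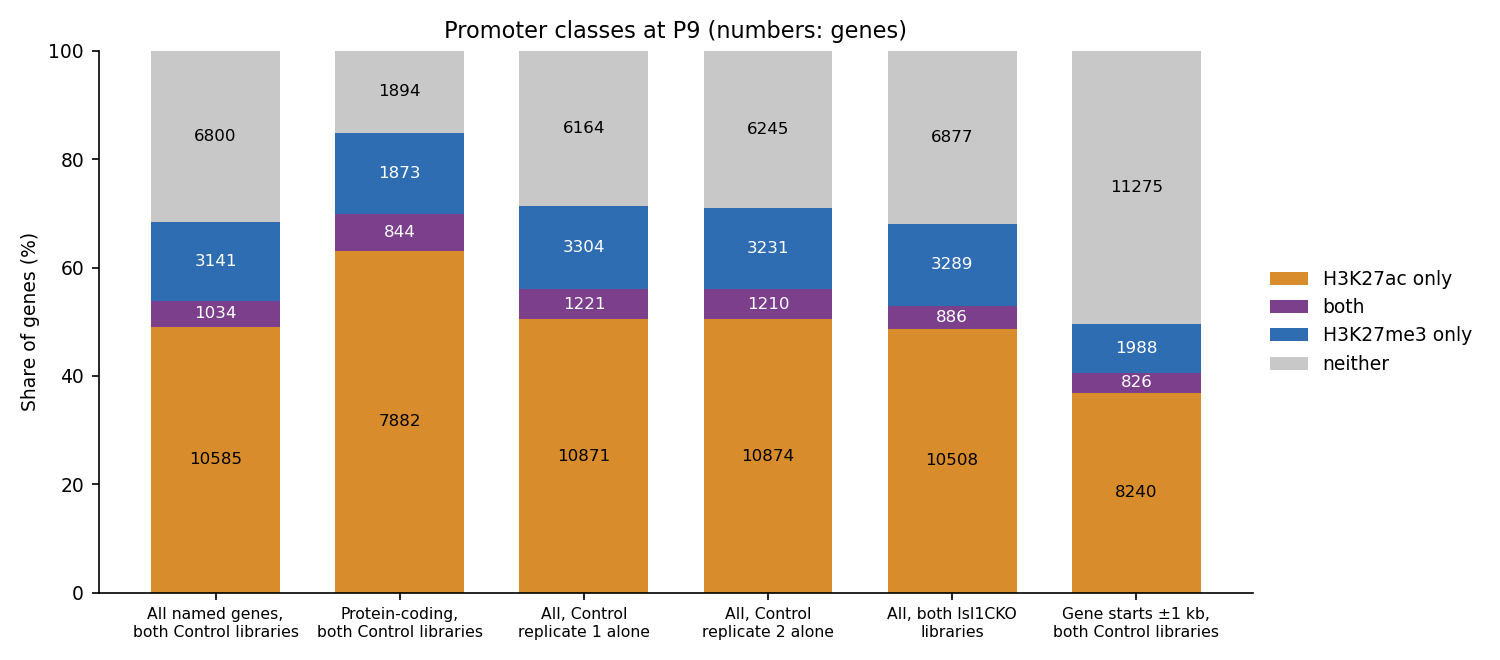
Share of genes (%) in each promoter class, with the number of genes in each block, for 6 ways of counting. H3K27ac only is the largest class in the first 5 bars, and the class with both marks is between 826 and 1221 genes in all 6; the last bar counts any region within 1 kb of a gene start.

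The class counts were alike when each Control library was used alone, although the libraries themselves were not. Replicate 1 gave 1221 genes with both marks and replicate 2 gave 1210, and 1034 of these were shared, or 84.7% and 85.5% of each. The class with H3K27ac alone shared 95.9% of replicate 1 genes, and that with H3K27me3 alone shared 89.2%. Across promoter regions, the H3K27ac libraries correlated at r = 0.564 on the log scale and rho = 0.670, and the H3K27me3 libraries at r = 0.859 and rho = 0.842, as a description across regions of the same libraries. The regions within 2-fold of each other were 65.3% for H3K27ac and 66.4% for H3K27me3. Replicate 2 is the H3K27ac library that stood apart from the other 3 of that mark. Without it, and with both H3K27me3 libraries, the classes held 10988 genes with H3K27ac alone, 3071 with H3K27me3 alone, 1104 with both and 6397 with neither.

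Depth limited the calls near the threshold. The Control libraries held 1307049 and 1815511 counts for H3K27ac and 1202276 and 1750706 for H3K27me3, so that 5 CPM was 7 and 10 counts, and 7 and 9 counts. The exact 95% Poisson interval around such a count reached from 2.15 to 11.0 CPM in the first H3K27ac library and from 2.34 to 12.0 CPM in the first H3K27me3 library, covering counting error only. Of the genes with a listed promoter region, 14.9% for H3K27ac and 18.5% for H3K27me3 had their lower library between 3 and 10 CPM. Just inside the H3K27ac threshold was Zfyve21, at 5.36 and 6.06 CPM, and just outside it was Msantd1, at 16.8 and 4.96 CPM. Just inside for H3K27me3 was Cbr2, at 15.8 and 5.14 CPM, and just outside was Myf5, at 4.99 and 18.3 CPM.

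The chosen region of genes with H3K27ac alone had a median width of 1370 bp and a median level of 29.7 CPM per kb, and 80.7% of the regions overlapped the annotated start. Levels per kb were ranked among regions of at least 500 bp whose Control libraries were within 2-fold of each other, here and for the other classes. The highest was Dis3l. Its region (chromosome 9, 64247311 to 64248941, GRCm39) measured 213.5 and 212.6 CPM in the 2 Control libraries, or 130.6 CPM per kb. It was followed by Hexim2, an inhibitor of the elongation factor P-TEFb, at 114.0 and 161.9 CPM, and by Cpsf2, a subunit of the mRNA cleavage complex, at 120.9 and 212.6 CPM. The kinesin light chain gene Klc1, the mitochondrial tRNA synthetase gene Nars2 and Hmgcs1, an early enzyme of cholesterol synthesis, completed the 6 highest, at 104.9 to 106.6 CPM per kb. No H3K27me3 promoter region was listed for any of these genes.

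Most of the named secretory and housekeeping genes were in the H3K27ac class. Of 24 named genes of the hormone secretion machinery, 19 carried H3K27ac alone, 0 carried H3K27me3 and 5 carried neither, beside 49.1 percent of all genes and 63.1% of protein-coding genes with H3K27ac alone. By any region within 1 kb of the start, 20 of 24 had H3K27ac alone, 3 had neither and Vgf, which encodes a granule peptide precursor, had H3K27me3 alone. Chgb, which encodes the granule protein chromogranin B, had the highest level per kb of this list, 95.7 CPM per kb from 123.9 and 113.5 CPM. Rims2, an active-zone protein that docks granules, measured 182.9 and 174.6 CPM, or 60.8 CPM per kb. Of 15 named housekeeping genes, 14 carried H3K27ac alone, and Rpl3 carried neither. The list medians were 30.5 and 27.5 CPM per kb, beside 28.1 for all 12575 genes with an H3K27ac promoter region.

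Of 20 named chromatin regulators, among them genes whose products place and remove the marks, 16 carried H3K27ac alone, 3 carried both marks and 1 carried neither. The same classes held 49.1 percent and 4.8 percent of all genes, and 63.1% and 6.76% of protein-coding genes. The deacetylase gene Hdac2 measured 224.9 and 113.5 CPM, and Kdm6a, a demethylase of H3K27me3, measured 161.4 and 137.2 CPM. Among the 3 with both marks, Cbx2 and Cbx8 encode chromodomain proteins of Polycomb repressive complex 1. Cbx8 had 1204 and 1057 CPM of H3K27me3 over 19923 bp together with 55.1 and 57.8 CPM of H3K27ac. Cbx2 had 64.9 and 42.3 CPM of H3K27me3 and 11.5 and 15.97 CPM of H3K27ac. Ezh2, Ezh1 and Suz12, which encode parts of Polycomb repressive complex 2, carried H3K27ac alone.

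Genes with H3K27me3 alone had regions from narrow to broad. The chosen region had a median width of 3112 bp. The lower quartile ended at 1645 bp, the upper quartile began at 5427 bp, and 889 genes (28.3%) had a region of at least 5000 bp. The median level was 21.8 CPM per kb. By level per kb, under the same limits on width and replicates, the leading genes were Gm4675 at 124.2 CPM per kb (554.8 and 395.3 CPM), D030062O11Rik at 123.8, and Hmx3, a homeobox gene of the inner ear and hypothalamus, at 112.9. Next came AB041806, Ccdc154 and the long noncoding gene Gm16499, at 101.3 to 111.1 CPM per kb. No H3K27ac promoter region was listed for these 6. The widest region of all, chosen after its width was seen, covered 60774 bp of the Hoxb cluster (chromosome 11, 96177522 to 96238295, GRCm39), with 2181 and 2434 CPM.

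**Figure D2:**
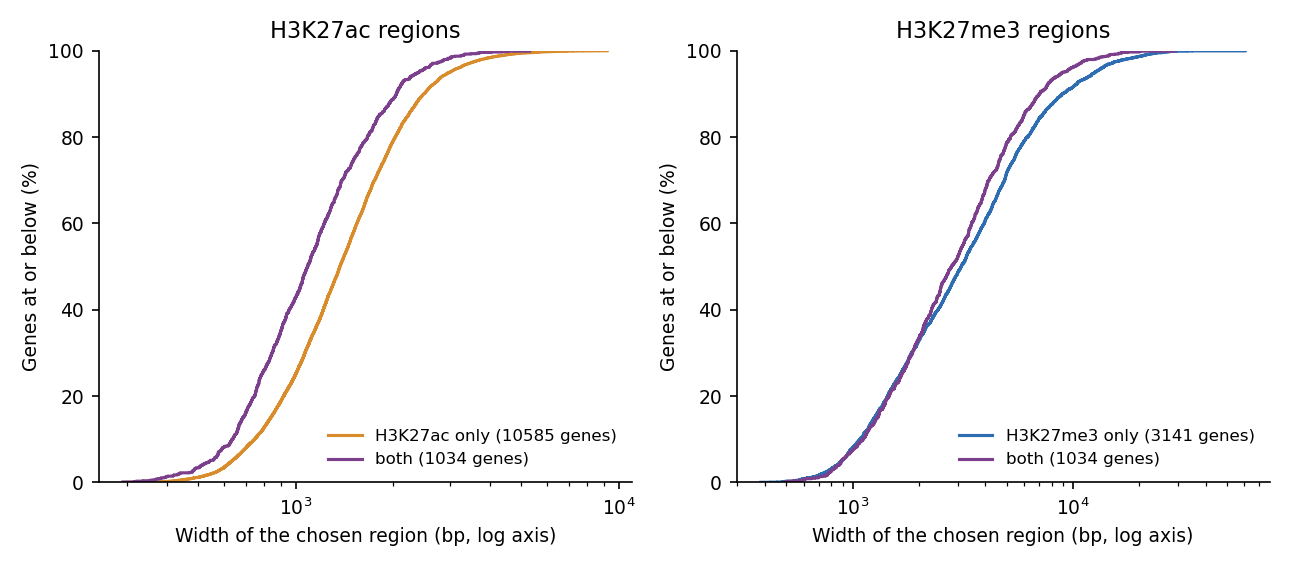
Cumulative share of genes (%) against the width of the chosen promoter region (bp, log axis), left for H3K27ac and right for H3K27me3. Regions of genes with both marks lie to the left of those with H3K27ac alone (medians 1090 and 1370 bp) and, in the upper part, of those with H3K27me3 alone (medians 2817 and 3112 bp).

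The H3K27me3 class held the regulators of other lineages and body regions. Of 23 named Hox genes, which set position along the body axis, 21 carried H3K27me3 alone and 0 carried H3K27ac, beside 14.6 percent of all genes with H3K27me3 alone. Because each region is assigned to 1 nearest gene, wide domains left neighbours without a region: Hoxb4 and Hoxb5 lay under the region assigned to Hoxb6. When any region within 1 kb of a start was counted instead, 27 of 28 Hox genes with a start in the table had H3K27me3 alone, and Hoxb9 had neither. By the same count the background was 8.9 percent of 22329 genes.

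The other developmental transcription factors were also mostly in the H3K27me3 class. Of 42 named, 35 carried H3K27me3 alone, 2 carried H3K27ac alone, 1 carried both and 4 carried neither, beside 14.6 percent of all genes with H3K27me3 alone. By the interval at the start, 49 of 52 had H3K27me3 alone, beside 8.9 percent of all genes. The median level of the list was 64.1 CPM per kb, beside 17.4 for all 4947 genes with an H3K27me3 promoter region. Gsx2, a forebrain homeobox gene, measured 471.6 and 674.0 CPM, or 96.1 CPM per kb. Tbx1, a T-box gene of the pharyngeal arches, had 1481 and 1241 CPM of H3K27me3 over 14564 bp and also 10.7 and 15.97 CPM of H3K27ac over 576 bp, and so was the member with both. The 2 members with H3K27ac alone were Gata6, a GATA factor of pancreas development, at 243.3 and 201.0 CPM, and Sox9, a factor of pancreatic progenitors and ducts, at 12.2 and 38.6 CPM. Sox9 had both marks by the interval at its start.

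Proneural factors had no member with H3K27ac. Of 13 named genes, 10 carried H3K27me3 alone, 0 carried H3K27ac, and Olig2, Neurod4 and Bhlhe23 carried neither. Among all genes, 14.6 percent carried H3K27me3 alone and 53.9 percent carried H3K27ac. By the interval at the start, 12 of 14 had H3K27me3 alone, Olig2 among them, and 2 had neither. That count gave H3K27me3 alone at 8.9 percent of all genes. Neurog2 and Neurod2, which drive neuronal differentiation in the cortex, measured 566.4 and 663.7 CPM, and 1415 and 1395 CPM. Neurod1, the close relative used in islets, was in the H3K27ac class.

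Secreted signals of the Wnt, Fgf and Bmp families mostly carried H3K27me3, alone or with H3K27ac. Of 34 named genes, 19 carried H3K27me3 alone, 8 carried both, 2 carried H3K27ac alone and 5 carried neither. The same classes held 14.6, 4.8, 49.1 and 31.5 percent of all genes. Wnt10b measured 593.0 and 517.5 CPM of H3K27me3, the highest level per kb of this list at 97.4, with 36.7 and 30.9 CPM of H3K27ac. Ihh, which encodes Indian hedgehog, had 718.6 and 757.4 CPM of H3K27me3 and 9.18 and 26.99 CPM of H3K27ac. The Bmp antagonists Nog and Chrd also carried both, and Chrd had the most H3K27ac of these 4, at 77.3 and 108.0 CPM. Wnt4 and Fgf9 were the members with H3K27ac alone.

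The endothelial, mesenchymal and immune genes of the lists had no H3K27ac near their starts that reached 5 CPM in both Control libraries. The mesenchymal gene Vim had an H3K27ac region over its start at 19.13 CPM in replicate 1 and 2.754 in replicate 2. Within 1 kb of their starts, 0 of 10 endothelial, 0 of 11 mesenchymal and 0 of 10 immune genes had H3K27ac without H3K27me3, and neither did any of them have both marks, beside 36.9 percent of all genes with H3K27ac alone. In this count H3K27me3 alone was found at 3 endothelial, 6 mesenchymal and 1 immune gene, and the others had neither. Among all genes it gave 8.9 percent with H3K27me3 alone and 50.5 percent with neither. Kdr and Flt1, receptors for VEGF on endothelium, measured 174.7 and 239.3 CPM, and 485.7 and 519.2 CPM of H3K27me3. Pdgfra, the mesenchymal receptor for PDGF, measured 711.2 and 747.1 CPM. By the nearest-gene assignment Cd79a, a B cell receptor subunit, was the 1 immune gene with H3K27ac, at 36.7 and 7.16 CPM.

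Most acinar genes had neither mark near their starts, while the regulators Ptf1a and Rbpjl carried H3K27me3. By the interval at the start, 10 of 13 acinar genes had neither mark (50.5 percent of all genes), 2 had H3K27me3 alone and 1 had H3K27ac alone. Rbpjl had no start in the table, so it is not among these 13 and its class is by the nearest-gene assignment. Ptf1a, the master regulator of acinar cells, had 446.7 and 506.1 CPM of H3K27me3 over 13156 bp, and its partner Rbpjl had 365.1 and 363.9 CPM. Bhlha15 (Mist1), a factor of secretory cells, carried H3K27ac at 85.7 and 52.9 CPM. The enzyme genes Cela1, Cela2a, Prss2, Pnlip and Cel were named in neither table. Ctrb1 was named for 5 H3K27ac regions and Cpa1 for 1 region of each mark, none of them a promoter region. Of 12 ductal genes, 4 had H3K27ac alone (36.9 percent of all genes by this count), 3 H3K27me3 alone, 2 both and 3 neither. Of 7 glial genes, 2 had H3K27ac alone, 2 had H3K27me3 alone and 3 had neither. Among all genes, this count gave 36.9 percent with H3K27ac alone, 8.9 with H3K27me3 alone, 3.7 with both and 50.5 with neither.

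The neuronal list held members of every class. Of 16 neuronal genes, 7 carried H3K27me3 alone, 4 both, 3 H3K27ac alone and 2 neither. The same classes held 14.6, 4.8, 49.1 and 31.5 percent of all genes. Prph and Stmn2, cytoskeletal genes of neurons, measured 579.7 and 469.0 CPM, and 255.3 and 295.9 CPM of H3K27me3. Elavl4, an RNA-binding protein of neurons, carried H3K27ac at 21.4 and 26.4 CPM. Of 22 genes of distant tissues with a start in the table, 13 had neither mark, 7 had H3K27me3 alone and 2 had H3K27ac alone. By this count within 1 kb of a start, these classes held 50.5, 8.9 and 36.9 percent of all genes. Myod1, the muscle regulator, had 388.4 and 385.0 CPM of H3K27me3. Of 16 named cell cycle genes, 11 carried H3K27ac alone, 2 H3K27me3 alone, 2 both and 1 neither, beside 49.1 percent of all genes and 63.1% of protein-coding genes with H3K27ac alone. Those with H3K27me3 alone were Cdkn2a and Cdkn2b, inhibitors of cyclin D kinases, and the D-type cyclin gene Ccnd1 and its kinase Cdk6 carried both. At Cdkn2b an H3K27ac region over the start measured 26.01 and 2.754 CPM, and the H3K27me3 region lay 1694 bp from the start. By the interval at the start, Cdkn2b had neither mark and Cdk6 had H3K27me3 alone.

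**Figure D3:**
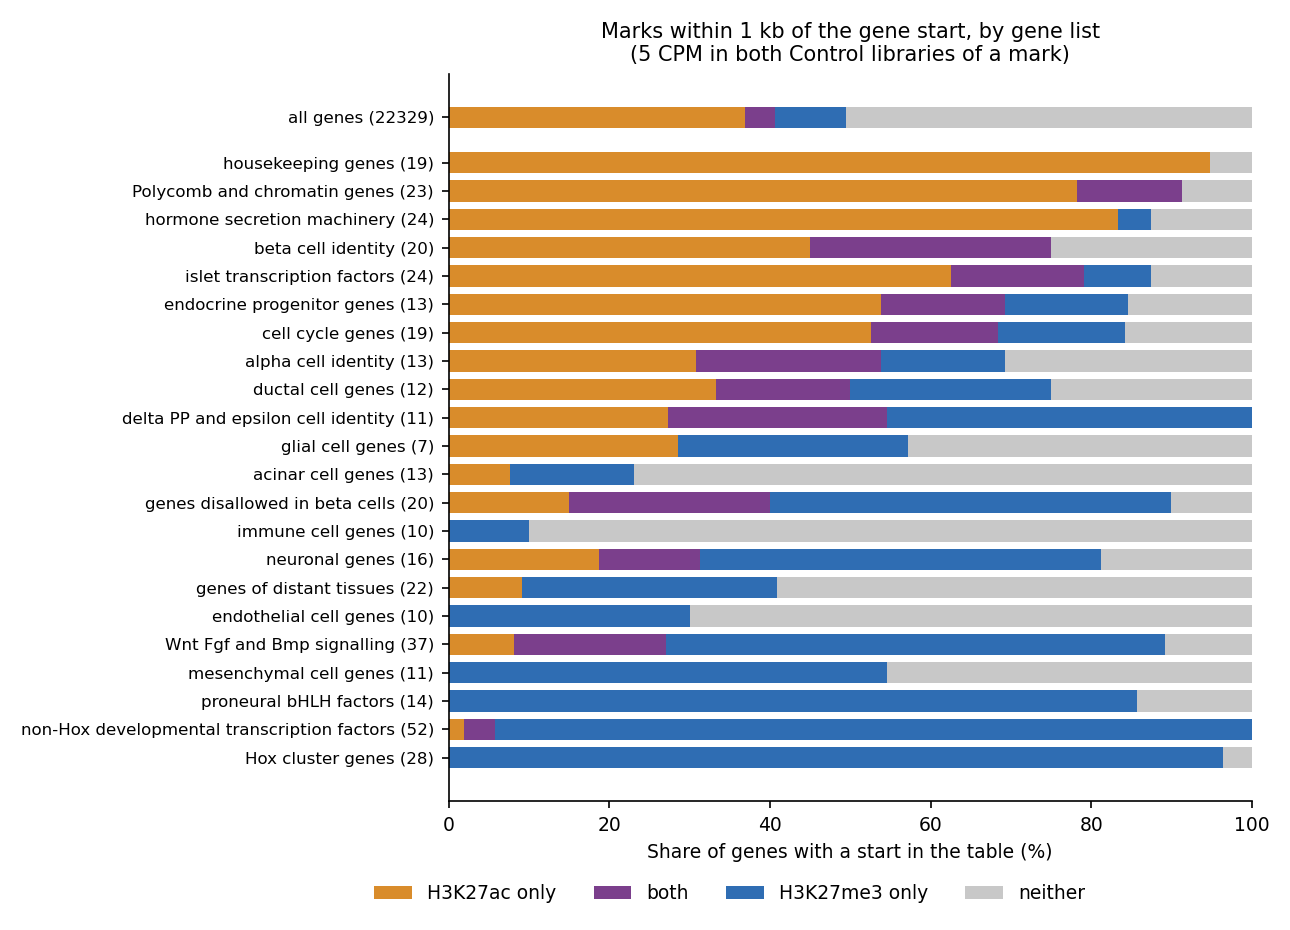
Share of the genes of each list (%, number of genes with a start in brackets) with H3K27ac alone, both marks, H3K27me3 alone or neither within 1 kb of the start at 5 CPM in both Control libraries. Housekeeping genes are at the acetylated end (18 of 19), and Hox genes (27 of 28) and other developmental factors (49 of 52) are at the H3K27me3 end.

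At most genes with both marks, the marks lay on the same stretch of DNA. The chosen regions overlapped at 853 of 1034 genes (82.5%), and by at least 50% of the narrower region at 802 (77.6%). At 545 genes (52.7%) the H3K27ac region lay wholly inside the H3K27me3 region. At the remaining 181 genes the regions were apart, by a median of 980 bp. The overlapping pairs had a median H3K27me3 width of 3208 bp, against 1733 bp for the pairs that were apart. Relative to genes with a single mark, genes with both had less of each per kb, 23.1 against 29.7 CPM per kb of H3K27ac and 18.5 against 21.8 of H3K27me3. These levels also decide the classes, so they are given as a description.

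Seen from the regions instead of the genes, 8.14% of 13510 H3K27ac promoter regions above the threshold overlapped an H3K27me3 region. Conversely, 20.2% of 5169 H3K27me3 promoter regions overlapped an H3K27ac region. The share was 22.4% for H3K27me3 regions of at least 5000 bp and 19.6% for narrower ones.

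Mafa, a transcription factor of beta cell maturation, was the highest of the class when each gene was ranked by the lower of its marks per kb, under the limits given above. Its H3K27ac region (chromosome 15, 75619911 to 75620704, GRCm39) measured 29.1 and 47.9 CPM, or 48.5 CPM per kb. That region lay inside a 14618 bp H3K27me3 domain (75608703 to 75623320) with 874.2 and 652.3 CPM, or 52.2 CPM per kb. Pparg, the adipocyte nuclear receptor, had 36.7 and 52.9 CPM of H3K27ac inside an H3K27me3 region of 1760 bp with 145.6 and 87.96 CPM. Igsf21, an adhesion protein of inhibitory synapses, and Frat2, a regulator of Wnt signalling, also had overlapping regions. Kdelr1, a receptor that returns proteins to the endoplasmic reticulum, was different: its H3K27ac region (127.8 and 177.4 CPM) covered the start, and its H3K27me3 region (267.8 and 160.5 CPM) ended 247 bp away from it. At Spag6, a gene of the ciliary axoneme, the 2 regions were 1344 bp apart.

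Of 20 named genes of beta cell identity, 7 carried both marks, beside 4.8 percent of all genes. Another 10 carried H3K27ac alone, 3 carried neither and 0 carried H3K27me3 alone. Beside Mafa and Pdx1, the 7 were the glucose transporter gene Slc2a2, the incretin receptor gene Glp1r, the prohormone convertase gene Pcsk1, the activity-induced factor Npas4 and the prolactin receptor gene Prlr. Glp1r had 88.8 and 130.5 CPM of H3K27ac and 162.2 and 70.8 CPM of H3K27me3. Npas4 had 39.0 and 32.0 CPM of H3K27ac at one end of a 7934 bp H3K27me3 domain with 384.3 and 294.2 CPM. The median H3K27me3 level of the list was 14.9 CPM per kb, below the 17.4 of all genes, and its median H3K27ac level was 32.4, above 28.1. By the interval at the start 6 of 20 had both marks, beside 3.7 percent of all genes, and Slc2a2 then had H3K27ac alone.

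At the subunits of the ATP-sensitive potassium channel, 1 library decided the class. Kcnj11, the pore subunit gene, had 186.7 and 154.8 CPM of H3K27ac, and its H3K27me3 region of 4852 bp held 172 counts in Control replicate 1 and 3 in replicate 2, or 143.1 and 1.71 CPM. Abcc8, the sulfonylurea receptor gene, had 95.6 and 87.0 CPM of H3K27ac and 43.3 and 4.57 CPM of H3K27me3. Both genes are counted with H3K27ac alone and would carry both marks by Control replicate 1. In Isl1CKO replicates 1 and 2, the same H3K27me3 regions measured 62.4 and 110.2 CPM at Kcnj11. Those at Abcc8 measured 21.5 and 38.9 CPM. Over all genes, 16 had at least 40 CPM of H3K27me3 in Control replicate 1 and under 5 in Control replicate 2, and 5 the reverse.

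Genes that mature beta cells keep silent, the disallowed genes, were mostly marked by H3K27me3. Of 18 named, 9 carried it alone, 6 carried both, 3 carried H3K27ac alone and 0 carried neither, beside 14.6 percent of all genes with H3K27me3 alone and 4.8 percent with both. Ldha, the lactate dehydrogenase subunit that beta cells lack, had 719.5 and 775.7 CPM over 11547 bp and no H3K27ac promoter region listed. Those with both were Rest, Acot7, Smad3, Lmo4, Yap1 and Gas6. Rest, the repressor of neuronal genes, had 175.5 and 54.3 CPM of H3K27me3 and 39.0 and 16.5 CPM of H3K27ac. The 3 with H3K27ac alone were Slc16a1, Oat and Tgm2. Slc16a1, the lactate and pyruvate transporter, had 27.5 and 25.9 CPM of H3K27ac, and its H3K27me3 was at 25.8 CPM in replicate 1 and 4.00 in replicate 2.

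Genes with neither mark were mainly genes without a promoter region. Of these 6800 genes, 5470 (80.4%) had no promoter region of either mark listed and were named only for a distal or intragenic region. Another 758 had an H3K27ac promoter region that did not reach 5 CPM in both Control libraries, and 585 had such an H3K27me3 region. Their mean Control levels had medians of 12.0 CPM for H3K27ac and 5.87 CPM for H3K27me3. Most of these regions thus reached 5 CPM in either Control library, but not in both. With the threshold set on the mean of the Control libraries, 5735 genes had neither mark and 1371 had both. Both tables list only regions with at least 50 counts over 4 libraries, so an unlisted promoter is one without a listed region, not one shown to have no signal.

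The hormone genes of the islet fell in different classes. Ins1, one of the insulin genes, carried H3K27ac alone, at 5.36 CPM in replicate 1 (7 counts) and 25.3 in replicate 2 (46 counts), in a region of 487 bp. Ppy and Ghrl, which encode pancreatic polypeptide and ghrelin, also carried H3K27ac alone, at 16.1 and 35.3 CPM, and at 16.8 and 8.81 CPM. Sst, which encodes somatostatin, carried H3K27me3 alone: its region covered 4298 bp (chromosome 16, 23708575 to 23712872, GRCm39) with 99.8 and 113.7 CPM. Sst is a product of delta cells, a minority of islet cells, and in sorted bulk cells fewer cells with a mark and less of the mark per cell cannot be told apart. No region of either mark was named for Ins2 or Gcg, and Iapp, which encodes amylin, had a single H3K27ac region at -8184 bp from its start at 42.1 and 13.8 CPM. Ucn3, a peptide of mature beta cells, carried H3K27ac alone at 18.4 and 20.9 CPM.

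The factors shared by all endocrine cells carried H3K27ac alone in these cells sorted by Neurod1-cre activity. Pax6 measured 241.0 and 228.6 CPM over 6901 bp, Neurod1 71.9 and 84.3, Insm1 120.1 and 60.0, and Isl1, of which these mice had 1 floxed allele, 62.7 and 43.0. A small H3K27me3 region of 373 bp was listed inside the Pax6 domain, at 5.82 and 2.29 CPM. The granin genes Chga and Chgb had H3K27ac alone, at 127.8 and 58.9 CPM for Chga. Of 23 named islet transcription factors, 12 carried H3K27ac alone, 4 both, 3 H3K27me3 alone and 4 neither. The same classes held 49.1, 4.8, 14.6 and 31.5 percent of all genes. Foxa1 and Lmx1a, at 1003 and 922.5 CPM and at 624.6 and 711.1 CPM of H3K27me3, were among those with H3K27me3 alone.

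Factors of beta cells were acetylated, with or without H3K27me3. Nkx6-1 and Nkx2-2, homeobox factors of beta cells, carried H3K27ac alone at 112.5 and 105.2 CPM and at 155.3 and 103.6 CPM. Pdx1, the homeobox factor of pancreas and beta cells, had 86.5 and 89.2 CPM of H3K27ac (chromosome 5, 147206640 to 147209280) and 49.9 and 25.1 CPM of H3K27me3 over nearly the same interval (147206585 to 147209266). The overlap of these intervals was 2627 bp. Slc2a2, the glucose transporter GLUT2, had 41.3 and 48.5 CPM of H3K27ac and 15.0 and 18.9 CPM of H3K27me3.

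The class of some alpha and delta cell factors depended on how regions were assigned to genes. Irx1, an alpha cell homeobox gene, had 336.9 and 387.3 CPM of H3K27me3 over 8854 bp and 32.9 and 11.6 CPM of H3K27ac. Irx2 carried H3K27ac alone by the nearest-gene assignment, at 19.9 and 19.8 CPM, and both marks by the interval at its start, where the regions were assigned to Gm20554. Hhex, the delta cell homeobox gene, had neither by assignment and both by interval, with 193.0 and 398.1 CPM of H3K27me3 and 20.7 and 19.8 of H3K27ac in regions assigned to Gm38345. Of 11 named alpha genes, 6 carried H3K27ac alone, 2 H3K27me3 alone, 2 both and 1 neither. Of 11 delta, PP and epsilon genes, 3 carried H3K27ac alone, 5 H3K27me3 alone, 2 both and 1 neither. Among all genes these shares were 49.1, 14.6, 4.8 and 31.5 percent. By the interval at the start, 4 of 13 alpha genes had H3K27ac alone, 2 H3K27me3 alone, 3 both and 4 neither. For the 11 delta, PP and epsilon genes these counts were 3, 5, 3 and 0. The interval gave shares of 36.9, 8.9, 3.7 and 50.5 percent among all genes.

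Progenitor genes that are switched off as endocrine cells mature varied. Neurog3, which starts the endocrine programme, had 42.1 and 9.92 CPM of H3K27ac inside a 6184 bp region with 120.6 and 95.96 CPM of H3K27me3. Fev, a later progenitor factor, had 71.2 and 65.6 CPM of H3K27ac and, 134 bp away, an H3K27me3 region at 8.32 and 82.8 CPM. Sox11 and Cck carried H3K27me3 alone, at 241.2 and 166.8 CPM and at 288.6 and 237.6 CPM. Of 13 named progenitor genes, 5 carried H3K27ac alone, 3 H3K27me3 alone, 2 both and 3 neither. Among all genes these shares were 49.1, 14.6, 4.8 and 31.5 percent.

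**Figure D4:**
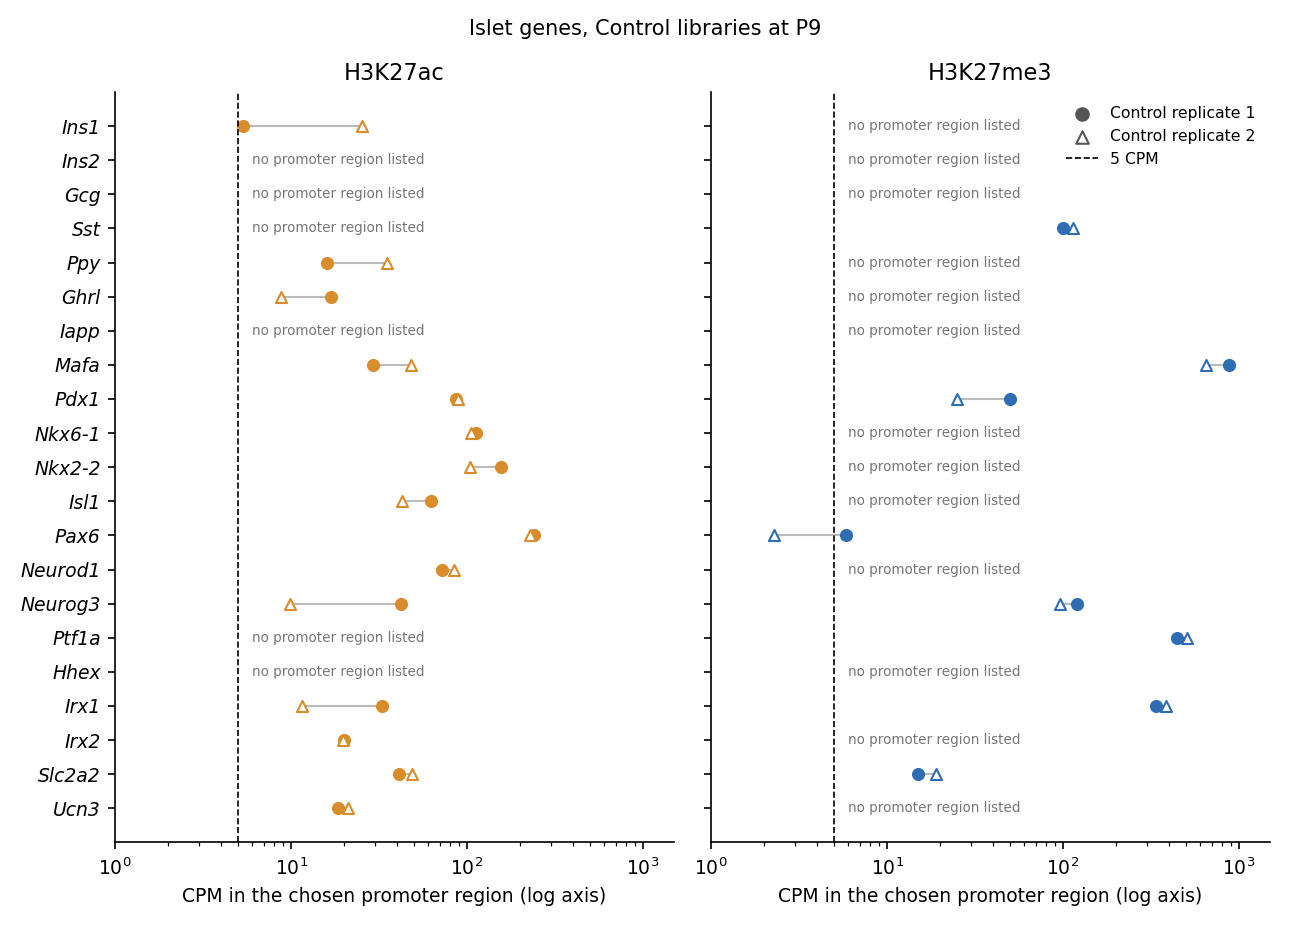
CPM of the chosen promoter region (log axis) of each islet gene in the 2 Control libraries of H3K27ac (left) and H3K27me3 (right), with the 5 CPM threshold as a dashed line. Sst and Ptf1a have only H3K27me3 points, and Mafa, Pdx1, Neurog3, Irx1 and Slc2a2 have points above the threshold in both panels.

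ISL1 values and chromosomes were not used by the rule. The deposited ISL1 value at P9 was at least 1 at 19.2% of 818 genes with both marks, 17.5% of 1904 genes with H3K27me3 alone, 10.1% of 7221 with H3K27ac alone and 9.04% of 2290 with neither, beside 11.7% of all 12233 genes with a value. This is 1 library, and the unit of its values is not given in the sources used here. On the X chromosome, 18.6% of 483 genes carried H3K27me3 alone, against 14.48% of 21077 autosomal genes, and 2.69% against 4.84% carried both.

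The same rule, applied to the same regions in the Isl1CKO libraries, returned most genes to their class. The class was the same for 93.0% of genes with H3K27ac alone, 87.4% with H3K27me3 alone and 87.4% with neither, but for 67.3% of those with both. Of the 1034 genes with both marks in Control, 205 had H3K27me3 alone in Isl1CKO and 115 had H3K27ac alone. The classes were chosen on Control values, so no direction is read from these moves. Mafa, Pdx1, Neurog3 and Irx1 kept both marks, Slc2a2 had H3K27ac alone, and Ins1, Ppy and Ucn3 had neither. In Isl1CKO replicates 1 and 2, H3K27ac was 4.405 and 9.709 CPM at Ins1 and 2.937 and 17.34 CPM at Ppy. Ins1 and Ppy thus missed the threshold in replicate 1 alone, where 5 CPM was 4 counts. The chosen Ucn3 region had 0.0 CPM in both. The edgeR adjusted p was 0.93 for Ins1, 0.901 for Ppy and 0.84 for Ucn3. H3K27me3 at Slc2a2 was 16.69 and 1.77 CPM.

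With edgeR's quasi-likelihood test and Benjamini-Hochberg adjustment, 0 of 30036 H3K27ac regions (0.0 percent) and 0 of 19434 H3K27me3 regions (0.0 percent) were called between Isl1CKO and Control. At an unadjusted p below 0.05 there were 1751 (5.83 percent) and 841 (4.33 percent), and DESeq2 called 29 and 130 (0.0921 and 0.647 percent of listed regions). The H3K27ac region of Mafa measured 29.1 and 47.9 CPM in Control and 14.7 and 9.02 in Isl1CKO, a log2 fold change of -1.70 with an edgeR adjusted p of 0.851. Its H3K27me3 domain measured 874.2 and 652.3 against 694.4 and 727.0 CPM, a log2 fold change of -0.22 with an edgeR adjusted p of 1.0. Without Control replicate 1, edgeR called 1351 H3K27ac regions, and without Control replicate 2 it called 15.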

How the data were processed

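H3K27ac and H3K27me3 were measured by CUT&Tag, which tethers a transposase to antibody-bound chromatin, in sorted P9 endocrine cells. The submitters' processing notes name build GRCm39 and, in no given order, edgeR 4.0.16, ChIPseeker 1.38.0, MACS2 2.2.6, Bowtie2 2.3.5.1 and Picard 2.27.4. The authors deposited raw counts per region and library, with each region annotated to 1 nearest gene. Per the file headers, the ISL1 file holds a score per promoter window, with no unit given. Groups came from the labels.

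Repeated rows were removed (108 of 31587 for H3K27ac, 90 of 20176 for H3K27me3). Chromosome labels in both histone files follow the alphabetical order of names: as written 7.48% and 9.25% matched the ISL1 file by gene, and after relabelling 100.0% matched. CPM were counts over the library total in listed regions. The promoter region (annotated within 3 kb of a start) with the highest mean Control CPM was taken per gene and mark, and 5 CPM in both libraries counted as carrying it. A second count used any region within 1 kb of the 22329 starts in the ISL1 file. Symbols were matched to RefSeq GRCm38.p6 tables for 78.4% of genes, for biotype and promoter sequence only.

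Genotypes were compared over all regions of a mark with edgeR 4.0.16 (filterByExpr, TMM, quasi-likelihood test) in R 4.3.3, with DESeq2 1.42.0 as an alternative. The edgeR fit was checked on simulated counts, and the class rule on made-up genes of known class. DESeq2 was not checked in this way. Classes have no test. Named genes were the 6 highest per kb of each class among regions of at least 500 bp within 2-fold between Control libraries, set islet genes, 2 members per list and mark, exceptions within a list, and the genes next to the threshold; a few of the genes so chosen are not reported here. Further list members and the widest domain were chosen after their values were seen. The members, the 22 lists and the rules were chosen with earlier results of these data known. No per-sample column was left unused (0).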

Additional observations from a re-analysis of the deposited data

How the results depend on the processing

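The class counts followed the threshold, the genes counted and the assignment of regions. Genes with both marks numbered 651 at 10 CPM and 250 at 20 CPM, and 2015 when any region of the gene was used in place of promoter regions. Genes with neither mark numbered 11429 at 20 CPM, 2418 with any region, 37476 over all genes of the reference table, 11354 over its protein-coding genes and 11275 by the interval at gene starts. Genes with H3K27me3 alone numbered 1864 over the protein-coding genes and 1988 by that interval. The protein-coding and interval counts were added after the data were seen. With 1 Control replicate at a time, H3K27ac alone ranged from 10871 to 10874 genes, H3K27me3 alone from 3231 to 3304, both from 1210 to 1221 and neither from 6164 to 6245. With Control replicate 2 left out for H3K27ac only, an alternative chosen after seeing the data, these were 10988, 3071, 1104 and 6397. Scaling by TMM moved 14 of the 140 gene levels by more than the spread of the Control libraries. edgeR called 0 regions of either mark in the main fit, and DESeq2 called 29 for H3K27ac and 130 for H3K27me3. Leaving out 1 library at a time gave 0 to 1351 H3K27ac calls (1351 without Control replicate 1, 15 without Control replicate 2) and 0 to 0 H3K27me3 calls. With a replicate block the calls were 0 and 0. Across regions, the difference between the Control libraries was hardly correlated with that between the Isl1CKO libraries (r = 0.0608 for H3K27ac and -0.0172 for H3K27me3). This cannot show whether libraries with the same number were paired. At these depths, where 5 CPM is 7 to 10 counts, genes near the threshold cannot be placed firmly.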
